A study of Homo sapiens with 17 samples.

Results

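The collagen genes were taken as every gene of the expression table whose symbol was COL, a type number, A and a chain number. The rule found 43 of the 20218 genes in the table, and 37 of the 43 reached 1 FPKM (mapped fragments scaled to transcript length and to the library total) in at least 2 of the 17 libraries and were tested. The 37 comprised 9 of 11 fibrillar chains, all 6 chains of type IV collagen and 22 of 26 other chains. COL5A3, COL24A1, COL10A1, COL19A1, COL20A1 and COL28A1 did not reach that level. The cells came from H9, a human embryonic stem cell line, carrying a GFP reporter for SHOX2, a transcription factor gene of the sinoatrial node, and an mCherry reporter whose gene the labels do not name. All cells were treated first with CHIR99021, BMP4 and Activin A. The protocol then gave XAV939 for cardiomyocytes, or cucurbitacin, retinoic acid, SU5402, XAV939, Tyrphostin AG 490 and chidamide for sinoatrial node cells, and the labels do not say which of these procedures each sorted population came from. The groups were GFP+mCherry+ cells at day 25 (libraries 1, 4 and 7) and day 40 (libraries 10 and 13), GFP-mCherry+ cells at day 25 (libraries 2, 5 and 8) and day 40 (libraries 11, 14 and 17), and GFP-mCherry- cells at day 25 (libraries 3, 6 and 9) and day 40 (libraries 12, 15 and 18). The labels call all 17 libraries sinoatrial node-like cells of 1 line, and nothing in them says that libraries of a group came from separate differentiations, so the p-values rest on differences among libraries that may be technical replicates.

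Collagens are proteins of 3 chains wound into a triple helix, built in the endoplasmic reticulum with the help of hydroxylases and chaperones, secreted, trimmed and crosslinked. Fibrillar collagens, mainly types I and III, form the tensile fibres of the interstitial matrix and are made in the heart mostly by fibroblasts. Type IV collagen forms the sheet-like network of basement membranes, including those around each cardiomyocyte, and the other types decorate fibrils, form microfilaments or span the plasma membrane. The sinoatrial node is embedded in a dense collagen matrix.

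The 6 genes of type IV collagen lie in 3 head-to-head pairs, each reading outwards from a shared promoter region. The stretches between the starts of the paired genes are shown because the partners of a pair can be compared as transcripts from 1 such region. They are plus-strand sequences of RefSeq on GRCh38.p14, with capitals at GGGCGG, the core of a GC box, at CCAAT, and at their reverse complements.
COL4A1 and COL4A2, chr13:110307158-110307283: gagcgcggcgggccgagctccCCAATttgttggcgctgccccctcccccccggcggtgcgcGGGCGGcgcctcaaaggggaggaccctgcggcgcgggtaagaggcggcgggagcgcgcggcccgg
COL4A4 and COL4A3, chr2:227164489-227164623: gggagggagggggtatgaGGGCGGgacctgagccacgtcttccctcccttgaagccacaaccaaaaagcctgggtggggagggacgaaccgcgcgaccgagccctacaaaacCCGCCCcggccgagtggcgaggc
COL4A6 and COL4A5, chrX:108439588-108439837: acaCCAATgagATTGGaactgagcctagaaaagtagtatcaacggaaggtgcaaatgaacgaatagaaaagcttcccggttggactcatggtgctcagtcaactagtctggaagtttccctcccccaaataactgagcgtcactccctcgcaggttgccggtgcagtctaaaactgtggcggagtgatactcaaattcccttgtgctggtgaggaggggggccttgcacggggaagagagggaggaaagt
The first and second are whole, with 126 and 135 bases between the genes. The third is the 250 bases next to COL4A5, of 379 between the genes. GC content was 80.2% for the first, 68.1% for the second and 51.2% for the third. GGGCGG was found 1 time in the first and 2 times in the second, and CCAAT 1 time in the first and 2 times in the third. The letters TATAAA, searched for on either strand, were in none of these stretches. In windows from 250 bases before to 50 after the start, GGGCGG was in 4 of 7 windows of type IV collagen genes and in 45.0% of all 35116 windows, CCAAT in 4 of 7 and 34.6%, and TATAAA in 0 of 7 and 11.5%. These are matches of letters only. Promoter windows were matched for 31 of the 43 collagens, without COL1A1, COL1A2, COL2A1, COL3A1, COL5A2, COL6A1, COL6A5, COL8A1, COL9A3, COL14A1, COL20A1 and COL22A1. In the loci of the deposited table (hg19) COL4A1 (chr13:110801318-110959496) and COL4A2 (chr13:110958159-111165374) overlap by 1338 bases, and since no source used here gives the strand setting of the quantification, reads there could be assigned to either gene.

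The sort left SHOX2 at 49.0 to 138.9 FPKM in the 5 GFP+mCherry+ libraries and at 0.253 to 2.41 FPKM in the other 12. Read depth is not given in the files, and libraries summed to between 566029 and 660085 FPKM. Libraries 13 and 14 had the fewest genes above 0 (16493 and 16598, against at least 17108 in the others). Library 14 stood apart within GFP-mCherry+ cells of day 40. Calls of day 40 for named genes that were lost without a library are given as such, most with a value without it. Markers of other cell types were present in every group. The summed level of 10 fibroblast markers without collagens, 9 of them tested, was 2024 to 4083 FPKM in GFP+mCherry+ cells, 662.4 to 1044 in GFP-mCherry+ cells and 2030 to 2269 in GFP-mCherry- cells at day 25. At day 40 it was 3096 to 3216, 447.3 to 1630 and 2094 to 3835 FPKM in the same order, and DPT was at 0 in both GFP+mCherry+ libraries. DCN and LUM carried most of this sum, with means of 1615 and 1254 FPKM in GFP+mCherry+ cells of day 40. PDGFRA, TCF21, POSTN and FBLN2 were not called between the mCherry+ populations of that day. POSTN and THY1 had higher means in GFP-mCherry- cells (124.1 and 78.5 FPKM) than in GFP+mCherry+ cells (60.7 and 34.9). The sum of 8 cardiomyocyte markers was 5245 to 13320, 19030 to 23720 and 612.1 to 814.6 FPKM at day 25, and 6107 to 9645, 14660 to 25370 and 567.6 to 2459 at day 40. These markers were thus lowest in the GFP-mCherry- libraries, which carry the same node-like label as the other libraries. In these bulk samples fewer collagen-making cells and less collagen RNA per cell cannot be told apart.

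Collagen transcripts took between 0.472% and 4.085% of a library's summed FPKM. In GFP+mCherry+ cells the share was 2.25%, 1.56% and 2.15% at day 25 and 1.85% and 2.07% at day 40. In GFP-mCherry+ cells it was 0.694%, 0.650% and 0.761% at day 25 and 0.485%, 1.24% and 0.472% at day 40. In GFP-mCherry- cells it was 1.13%, 1.495% and 1.38% at day 25 and 2.21%, 4.085% and 2.03% at day 40. GFP-mCherry+ libraries were lowest at both days, without overlap with either other population of the same day. At day 25 GFP+mCherry+ libraries stood above GFP-mCherry- libraries, while at day 40 those populations overlapped and the highest library was GFP-mCherry- (library 15). COL3A1, the single chain of type III collagen, made up 25.4% to 53.5% of all collagen FPKM, and with the type I chains COL1A1 and COL1A2 it made up 49.5% to 83.0%. Within GFP-mCherry+ cells of day 40, library 14 had 1630 FPKM of fibroblast markers and a collagen share of 1.24%, against 447.3 and 539.5 FPKM of these markers and 0.485% and 0.472% in the other two. The part of the fibroblast markers in the collagen differences was not tested.

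**Figure D1:**
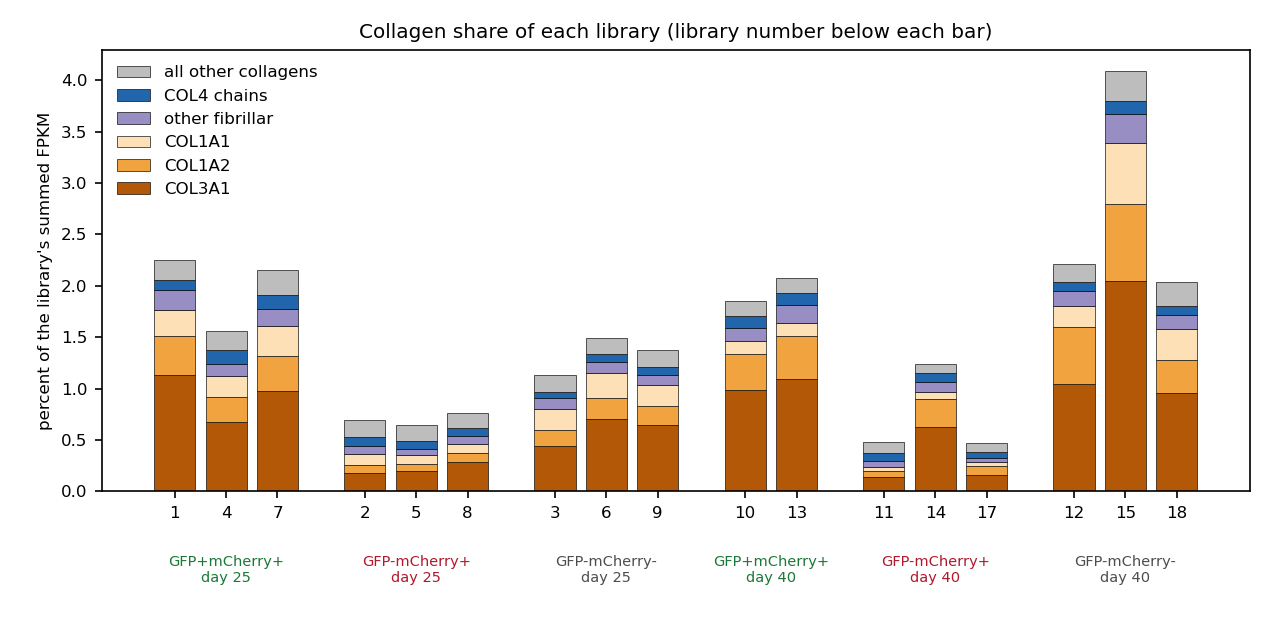
Stacked bars of the percent of each library's summed FPKM taken by collagen genes, with library numbers below and the 6 groups in order. Every GFP-mCherry+ bar is the lowest of its day, library 14 at 1.24% stands above the other GFP-mCherry+ bars, and library 15 is highest at 4.085%.

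Which collagens differ between the cells with and without the SHOX2 reporter among mCherry+ cells? At day 25, 17 of the 37 tested collagens were higher and 4 lower in GFP+mCherry+ than in GFP-mCherry+ cells (limma, adjusted p under 0.05 over 14845 genes), where 12.0% of all genes were called higher, 8.38% lower and 20.4% in either direction. At day 40, 16 were higher and 3 lower, where 16.2% of all genes were called higher, 9.29% lower and 25.5% in either direction. The higher counts include COL6A5, which passed the filter only through GFP+mCherry+ libraries, and were 16 and 15 of 36 without it. The median log2 difference of the collagens was 0.72 at day 25 and 0.72 at day 40, against 0.06 and 0.08 over all genes tested. Fold changes are on the scale of log2(FPKM + 1), which understates the change of genes near 1 FPKM. Among the fibrillar chains, 7 of 9 were higher and 2 lower at each day. Of the type IV chains, 3 of 6 were higher at day 25 and 1 of 6 at day 40, and none was lower. The call was lost at least once among the alternative settings for 10 of the 21 called collagens at day 25 and for 17 of the 19 at day 40. Without library 5 the count of higher collagens at day 25 was 11. At day 40 it was 10 without library 11 and 2 without library 13, which leaves 1 GFP+mCherry+ library whose spread is borrowed from the other groups, and the lower count was 1 without library 11 or 13 and 5 without library 14. Of the calls over all genes at day 40, 63.5% were higher, against 53.6% with median-of-ratios scaling and 49.9% with quantile normalization, which moved the median over all genes from 0.08 to -0.06. At day 25, 1779 genes were higher and 1244 lower, against 1486 and 1525 with median-of-ratios scaling. No called collagen changed its sign under any scaling.

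**Figure D2:**
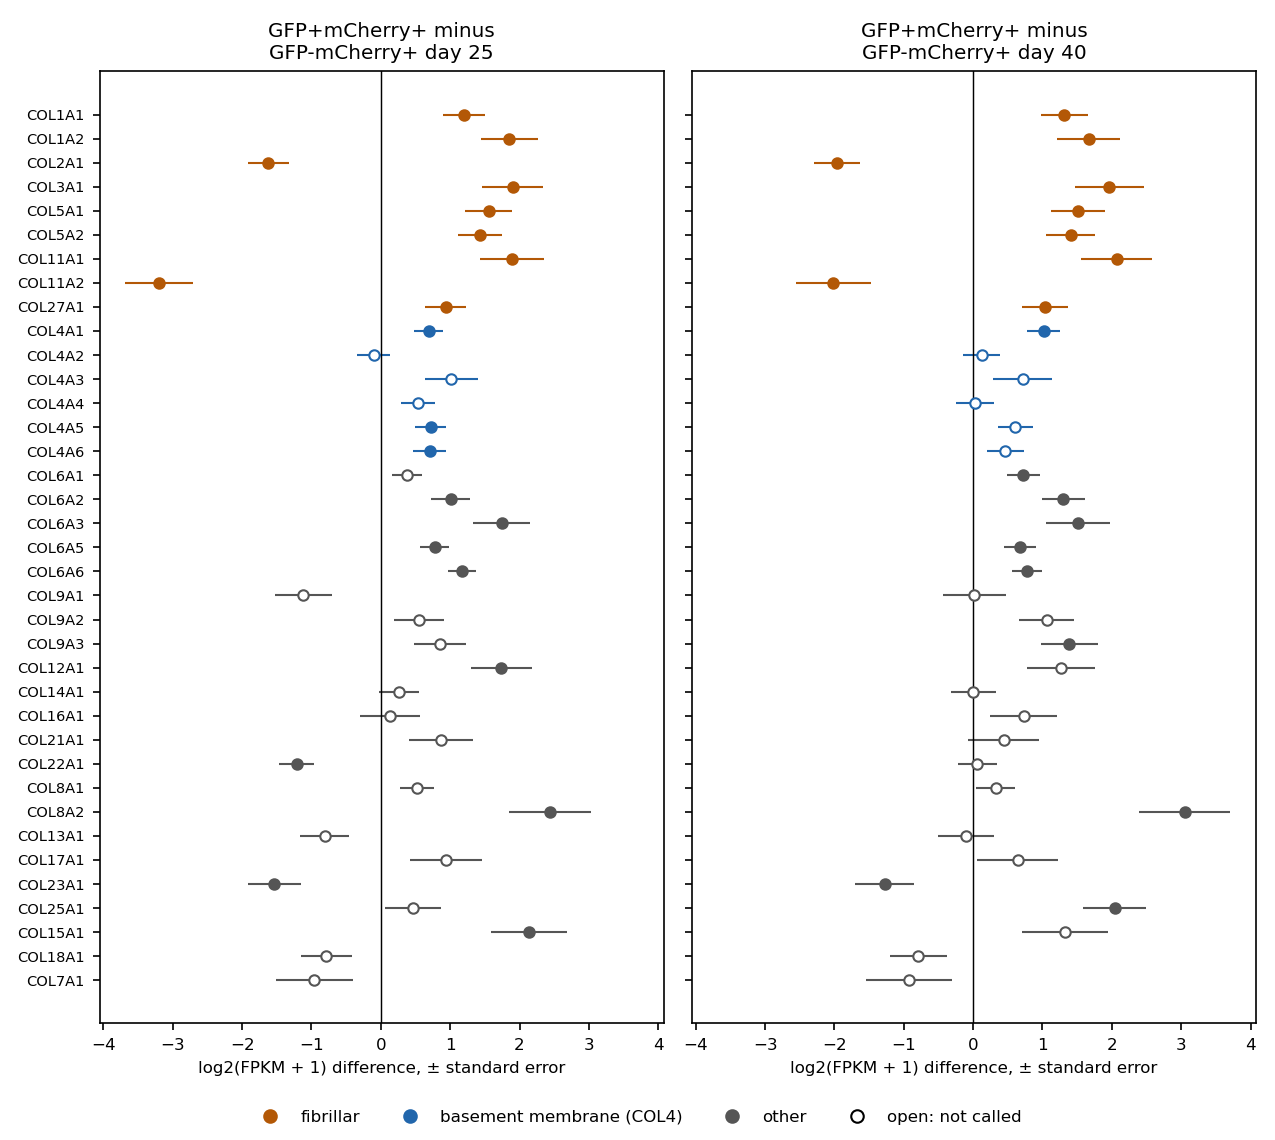
Difference in log2(FPKM + 1) between GFP+mCherry+ and GFP-mCherry+ cells for the 37 tested collagens at day 25 (left) and day 40 (right), with bars for 1 standard error, filled points where limma called the gene, and colours for the 3 classes. Fibrillar chains other than COL2A1 and COL11A2 lie to the right of 0 at both days, COL8A2 lies farthest right and COL11A2 at day 25 farthest left (-3.20).

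The major fibrillar chains were higher in GFP+mCherry+ than in GFP-mCherry+ cells at both days. COL3A1 stood at 6539, 3976 and 5533 FPKM in the GFP+mCherry+ libraries of day 25, at 1131, 1276 and 1912.5 in the GFP-mCherry+ libraries and at 2771, 4151 and 3919 in the GFP-mCherry- libraries. The mCherry+ populations did not overlap, and the GFP-mCherry- libraries lay between them and reached the lowest GFP+mCherry+ library. The log2 difference between the mCherry+ populations was 1.90 ± 0.44 (standard error, limma adjusted p 0.00781). At day 40 COL3A1 stood at 5713 and 6217 FPKM in GFP+mCherry+ cells, 929.8, 3769 and 1018 in GFP-mCherry+ cells, and 6111, 11712 and 5664 in GFP-mCherry- cells. Library 14, at 3769, was the GFP-mCherry+ library nearest to the GFP+mCherry+ ones, and the populations again did not overlap (1.96 ± 0.49, limma adjusted p 0.00899). Without library 13 the difference was 1.90 with a limma adjusted p of 0.0879. COL3A1 on chr2 (189839046 to 189877472, hg19) neighbours COL5A2, with 19149 bases between their loci.

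Type I collagen is the most abundant protein of fibrotic and tendon matrix and is built from chains of COL1A1 and COL1A2. COL1A1 stood at 1472, 1174 and 1667 FPKM in GFP+mCherry+ cells of day 25, at 719.6, 574 and 573 in GFP-mCherry+ cells and at 1270.0, 1453 and 1259 in GFP-mCherry- cells. GFP-mCherry+ libraries were lowest and the other populations overlapped. The difference between the mCherry+ populations was 1.20 ± 0.30 on the log2 scale (limma adjusted p 0.0115). At day 40 COL1A1 was 729.9 and 720.9 FPKM in GFP+mCherry+ cells, 258, 403 and 237 in GFP-mCherry+ cells, and 1216, 3421 and 1752 in GFP-mCherry- cells. These 3 populations did not overlap, with GFP-mCherry- cells highest, and the mCherry+ populations differed by 1.31 ± 0.34 (limma adjusted p 0.00974, and 0.0803 without library 13). COL1A2 stood at 2179, 1442 and 1918 FPKM in GFP+mCherry+ cells of day 25 against 513, 458 and 541 in GFP-mCherry+ cells and 1025, 1167 and 1109 in GFP-mCherry- cells. None of these populations overlapped, and the mCherry+ ones differed by 1.85 ± 0.41 (limma adjusted p 0.00572). The day 40 libraries stood at 1982 and 2394 against 368, 1617 and 541 FPKM in the mCherry+ populations and at 3262, 4265 and 1865 in GFP-mCherry- cells. Library 14 again came close to the GFP+mCherry+ libraries without reaching them (1.67 ± 0.45, limma adjusted p 0.014). That call was lost without library 11 (adjusted p 0.0572) or 13 (0.131).

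**Figure D3:**
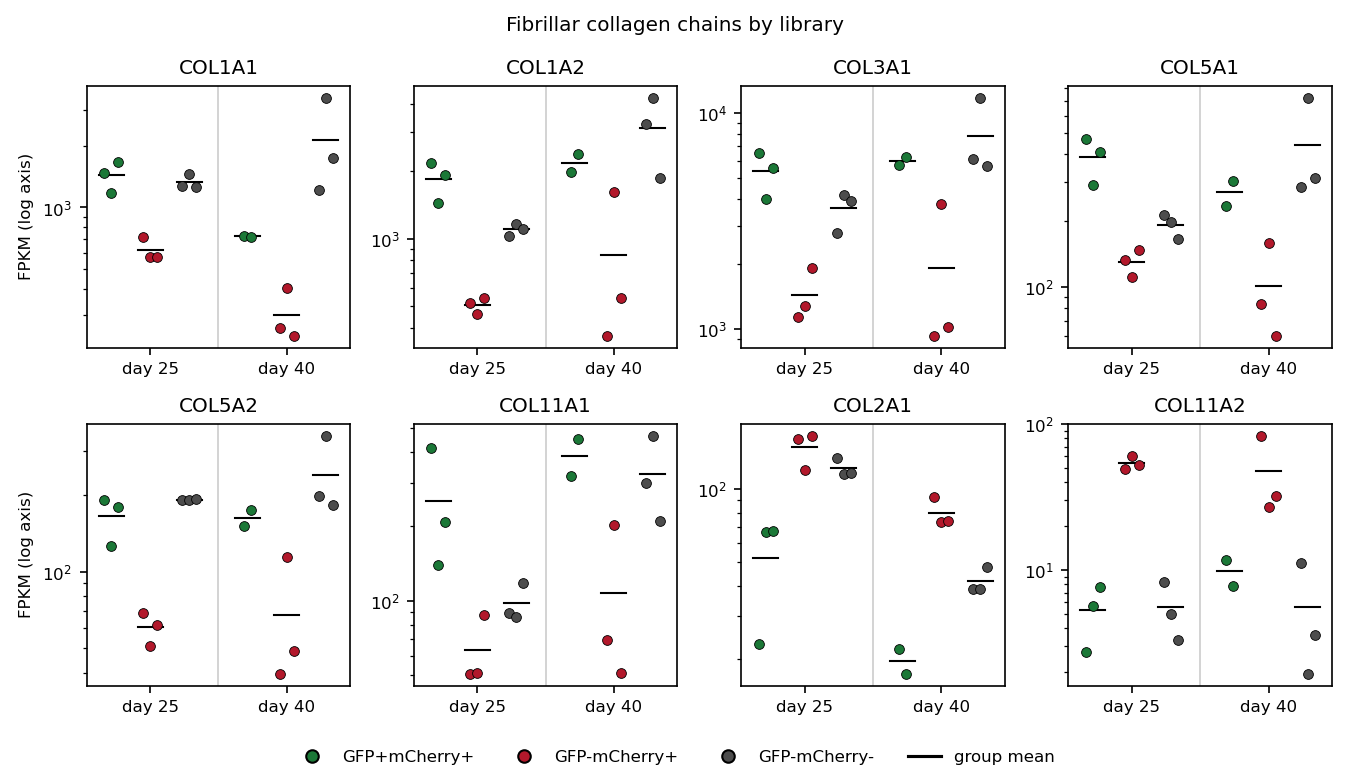
FPKM of 8 fibrillar chains on a logarithmic axis, with points for single libraries in the colour of their population, the days side by side, and a line at the group mean. COL1A1, COL1A2, COL3A1, COL5A1, COL5A2 and COL11A1 have their lowest mean of each day in GFP-mCherry+ cells, while COL2A1 is lowest in GFP+mCherry+ cells of day 40 and COL11A2 is highest in GFP-mCherry+ cells, reaching 82.9 FPKM in library 11.

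The minor fibrillar chains of types V and XI copolymerise with type I or II fibrils and set their diameter. COL5A1 stood at 469, 290.2 and 410.2 FPKM in GFP+mCherry+ cells of day 25 against 132, 111 and 147.5 in GFP-mCherry+ cells, and at 234 and 303 against 84.2, 158 and 60.2 at day 40. The populations did not overlap at either day, and the differences were 1.55 ± 0.35 (limma adjusted p 0.00614) and 1.51 ± 0.39 (0.00976, and 0.121 without library 13). COL5A2 differed by 1.43 ± 0.32 (limma adjusted p 0.00598) and 1.41 ± 0.35 (0.00867, and 0.0995 without library 13). Its level in GFP-mCherry- cells of day 25, at 191, 192 and 193 FPKM, was as high as that of the highest GFP+mCherry+ library (192). COL11A1 stood at 414, 139.8 and 208 FPKM in GFP+mCherry+ cells of day 25 and at 50.8, 51.1 and 87.9 in GFP-mCherry+ cells, with library 1 far above the others of its group. Its day 40 levels were 319 and 451 FPKM against 69.4, 203 and 51.0. The differences were 1.89 ± 0.46 (limma adjusted p 0.00956) and 2.07 ± 0.51 (0.00803, and 0.109 without library 13), and the day 25 call was lost when libraries 1, 12 and 13 were left out together (adjusted p 0.0592). COL27A1, a fibrillar chain known from cartilage, was 30.9 ± 9.0 (SD, n = 3) against 15.7 ± 5.24 FPKM at day 25 and differed by 0.94 ± 0.30 and 1.04 ± 0.33 at the 2 days. Its call at day 25 was lost without library 4, 5, 7 or 8 (limma adjusted p up to 0.156), and at day 40 without library 11, 13 or 14 (up to 0.369).

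2 fibrillar chains ran the other way. COL2A1 encodes the main collagen of cartilage and is also expressed in early embryonic tissues. It stood at 23.1, 66.7 and 67.0 FPKM in GFP+mCherry+ cells of day 25, 161, 119 and 165 in GFP-mCherry+ cells and 134, 115 and 116 in GFP-mCherry- cells. Every GFP+mCherry+ library was below every other library of that day, with differences of -1.62 ± 0.30 from GFP-mCherry+ cells (limma adjusted p 0.00214) and -1.35 ± 0.30 from GFP-mCherry- cells (0.00882). Its day 40 levels were 22.05 and 17.4, 92.3, 73.4 and 73.8, and 38.8, 38.7 and 47.9 FPKM in the same order, so that the 3 populations did not overlap. The difference between the mCherry+ populations was -1.96 ± 0.33 (limma adjusted p 0.000933), and COL2A1 was called in all 16 alternatives at day 40 and in all 17 at day 25. COL11A2, the second chain of type XI collagen, stood at 2.75, 5.63 and 7.63 FPKM in GFP+mCherry+ cells of day 25 and 8.35, 4.99 and 3.30 in GFP-mCherry- cells. In GFP-mCherry+ cells it stood at 49.5, 60.4 and 52.8 FPKM, above every library of the other populations. Day 40 levels were 82.9, 27.2 and 32.1 FPKM in GFP-mCherry+ cells against 11.8 and 7.77, and 11.3, 1.95 and 3.58. The difference of GFP+mCherry+ from GFP-mCherry+ cells was -3.20 ± 0.49 at day 25 (limma adjusted p 0.000671) and -2.01 ± 0.54 at day 40 (0.0132), the latter lost without library 11 (0.0568) or 13 (0.147). GFP-mCherry+ cells exceeded GFP-mCherry- cells by 3.15 ± 0.49 and 2.96 ± 0.49 (limma adjusted p 0.000176 and 0.00029), and both calls stood in all 17 alternatives.

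The chain ratios within a library describe the same contrast without a scaling step and carry no test. COL11A1/COL11A2 was 0.846 to 1.66 in GFP-mCherry+ cells of day 25 and 0.837 to 7.45 at day 40, with library 14 at the top. In the other populations it ran from 10.7 (GFP-mCherry- cells, day 25) to 238 (GFP-mCherry- cells, day 40). COL11A1/COL2A1 was 2.1 to 17.9 in GFP+mCherry+ cells of day 25 against 0.316 to 0.532 in GFP-mCherry+ cells, and 14.5 to 25.9 against 0.691 to 2.76 at day 40. The chondrocyte markers without collagens (8 genes, 6 tested) summed to between 7.74 and 54.0 FPKM in all 17 libraries, with the highest sums in GFP-mCherry- cells of day 25, and none of them was at 0 throughout a group. COL1A1/COL1A2 was 0.676 to 1.40 at day 25 and 0.249 to 0.940 at day 40. It was lower at day 40 in each population, at 0.301 and 0.368 in GFP+mCherry+ cells (0.676 to 0.869 at day 25). The ranges of the days did not overlap within any of the 3 populations. Day cannot be told apart here from any difference in preparation or sequencing between the libraries of the days. COL3A1/COL1A2 stayed within 1.87 to 3.56 in every library, and COL5A1/COL5A2 within 0.858 to 2.45.

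**Figure D4:**
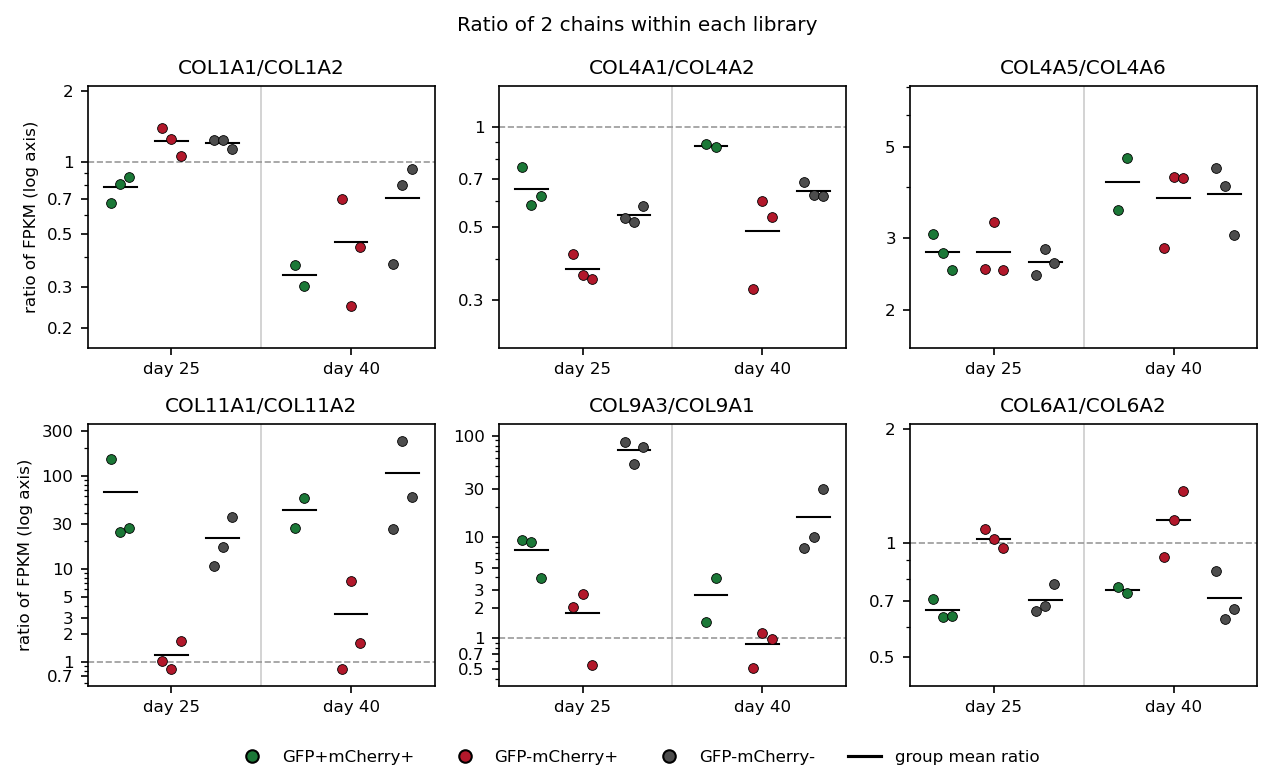
Ratio of FPKM between 2 chains of a collagen type within each library, on logarithmic axes with a dashed line at 1, points for libraries coloured by population and a line at the group mean ratio. COL1A1/COL1A2 is lower at day 40 in each population, COL11A1/COL11A2 is near 1 in GFP-mCherry+ cells apart from library 14 (7.45) and above 10 elsewhere, and COL9A3/COL9A1 is highest in GFP-mCherry- cells.

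Type IV collagen showed smaller differences, and its chains did not move as a unit. The trimer of COL4A1 and COL4A2 chains is found in nearly all basement membranes. COL4A1 stood at 144, 110.1 and 146 FPKM in GFP+mCherry+ cells of day 25, 87.1, 76.3 and 81.8 in GFP-mCherry+ cells and 82.4, 85.9 and 85.6 in GFP-mCherry- cells. Day 40 libraries stood at 144.6 and 129 FPKM, 62.8, 84.1 and 56.9, and 107.7, 207 and 132. GFP+mCherry+ libraries were above all GFP-mCherry+ libraries at both days. The difference was 0.69 ± 0.21 at day 25 (limma adjusted p 0.0311) and was lost without library 1, 2, 5, 7 or 8 (adjusted p 0.0534 to 0.104) and with median-of-ratios scaling (0.0713). At day 40 it was 1.02 ± 0.24 (limma adjusted p 0.00595) and stood in all 16 alternatives. COL4A2, its head-to-head neighbour, stood at 191, 189.6 and 235 FPKM in GFP+mCherry+ cells of day 25 against 210.4, 213 and 236 in GFP-mCherry+ cells, and 155 ± 10.6 (SD, n = 2) against 147 ± 44.3 (SD, n = 3) at day 40. These libraries overlapped at both days, with differences of -0.10 ± 0.24 (limma adjusted p 0.798) and 0.12 ± 0.27 (0.777). COL4A1/COL4A2 accordingly was 0.347 to 0.414 in GFP-mCherry+ cells of day 25, 0.517 to 0.578 in GFP-mCherry- cells and 0.581 to 0.757 in GFP+mCherry+ cells, without overlap. At day 40 it was 0.872 and 0.889 in GFP+mCherry+ cells, above the 0.324 to 0.599 of GFP-mCherry+ cells and the 0.620 to 0.682 of GFP-mCherry- cells. How reads in the shared 1338 bases were assigned bears on this ratio and was not tested.

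COL4A5 and COL4A6, the X-linked pair whose chains build the collagen of smooth muscle and some epithelial basement membranes, were called higher in GFP+mCherry+ cells at day 25 and not at day 40. COL4A5 stood at 196, 371 and 296 FPKM in GFP+mCherry+ cells of day 25, 169, 175 and 163 in GFP-mCherry+ cells and 111, 131 and 146 in GFP-mCherry- cells. Every GFP+mCherry+ library was above the others, with library 4 highest. The difference was 0.72 ± 0.22 from GFP-mCherry+ cells (limma adjusted p 0.0339) and 1.11 ± 0.22 from GFP-mCherry- cells (0.00505). The latter stood in all 17 alternatives, the former was lost without any of libraries 2, 4, 5, 7 and 8 (adjusted p 0.0741 to 0.148). COL4A6 stood at 64.0, 134.9 and 118 FPKM in GFP+mCherry+ cells, 67.0, 53.3 and 64.8 in GFP-mCherry+ cells and 45.4, 46.5 and 56.2 in GFP-mCherry- cells. Library 1 fell among the GFP-mCherry+ libraries, and the differences were 0.70 ± 0.24 (limma adjusted p 0.0479, lost without library 2, 4, 5, 7 or 8 at up to 0.194) and 1.02 ± 0.24 (0.0126, lost without library 3, 4 or 7 at up to 0.0646). At day 40 COL4A5 was 267 and 327 against 165, 247 and 178 FPKM in the mCherry+ populations (0.61 ± 0.25, limma adjusted p 0.0879), and COL4A6 76.0 and 69.5 against 58.2, 58.4 and 42.3 (0.47 ± 0.27, 0.217). COL4A5/COL4A6 was 2.43 to 4.70 in all libraries. The sum of 6 smooth muscle markers was 1661 to 2091 FPKM in GFP+mCherry+ cells of day 25, 990.6 to 1364 in GFP-mCherry+ cells and 693.2 to 1324 in GFP-mCherry- cells, and that of 6 epithelial markers 1080 to 1256, 492 to 775.8 and 1781 to 2220. At day 40 the smooth muscle sum was 1273 to 1396 FPKM in GFP+mCherry+ and 897.4 to 2499 in GFP-mCherry+ cells, which overlap, and the epithelial sum 766.6 to 991.6 and 400.1 to 725.6. Their part in the COL4A5 and COL4A6 values was not tested. COL4A3 and COL4A4, known from kidney glomeruli, did not exceed 3.72 and 1.71 FPKM and were not called between the mCherry+ populations (COL4A3 1.01 ± 0.38, limma adjusted p 0.0709, COL4A4 0.54 ± 0.25, 0.137 at day 25).

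Type VI collagen forms beaded microfilaments that link cells to the interstitial matrix. Of COL6A1, COL6A2, COL6A3 and COL6A6, 3 of 4 were higher in GFP+mCherry+ than in GFP-mCherry+ cells at day 25 and 4 of 4 at day 40, beside 12.0% and 16.2% of all genes. COL6A3 stood at 98.8, 109.8 and 129.6 FPKM against 40.9, 44.7 and 18.9 at day 25 and at 129 and 111 against 20.5, 82.4 and 40.7 at day 40. The populations did not overlap at either day, at 1.75 ± 0.41 (limma adjusted p 0.00844, in all 17 alternatives) and 1.52 ± 0.46 (0.0241, lost without library 10, 11, 13 or 17 at up to 0.115). COL6A2 stood at 269.6, 255 and 305 FPKM against 165, 128 and 121 at day 25 (1.00 ± 0.28, limma adjusted p 0.0193, lost without library 5, 7 or 8 at up to 0.0727), and at 147 and 128 against 80.8 (library 11), 49.8 and 41.8 at day 40 (1.30 ± 0.31, 0.00683, and 0.0653 without libraries 13 and 14). COL6A1 overlapped at day 25 (0.38 ± 0.21, limma adjusted p 0.225) and was called at day 40 (0.72 ± 0.24, 0.0363, lost without library 10, 13, 14 or 17 at up to 0.164). Thus COL6A1/COL6A2 was 0.637 to 0.711 in GFP+mCherry+ cells of day 25 and 0.967 to 1.09 in GFP-mCherry+ cells, and 0.739 and 0.766 against 0.915 to 1.37 at day 40. COL6A6 was called higher at both days at low levels, at 3.44 ± 0.635 against 0.986 ± 0.395 FPKM at day 25 (SD, n = 3 each; 1.17 ± 0.20, limma adjusted p 0.00126) and with a difference of 0.77 ± 0.22 at day 40 (0.0169, lost without library 11 or 13 at up to 0.138, and with quantile normalization, sample weights or only the compared groups). COL6A5 reached 1 FPKM in only 2 of 17 libraries, both GFP+mCherry+, at 1.55 FPKM (day 25) and 1.01 (day 40). It passed the filter only through the population where it was high, so its test is not given.

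The largest positive difference among the collagens at each day was that of COL8A2, a short-chain collagen of the hexagonal lattice beneath endothelia. It stood at 73.6, 19.8 and 29.9 FPKM in GFP+mCherry+ cells of day 25 against 2.88, 5.12 and 11.8 in GFP-mCherry+ cells, and at 40.9 and 56.6 against 3.82, 11.9 and 2.35 at day 40. GFP-mCherry- libraries of day 25 stood at 9.73 FPKM, within the GFP-mCherry+ range, at 18.8, between the ranges, and at 28.7, within the GFP+mCherry+ range. At day 40 they stood at 31.1 and 19.2 FPKM, between the ranges, and at 63.9, above both. The mCherry+ populations did not overlap at either day. The differences were 2.44 ± 0.59 (limma adjusted p 0.00962, and 0.0615 with libraries 1, 12 and 13 left out) and 3.05 ± 0.66 (0.00377, and 0.0592 without library 13). COL8A1, which assembles with COL8A2 or alone, was 0.968 to 3.02 FPKM in the mCherry+ libraries of day 25 and was not called between them (0.53 ± 0.25, limma adjusted p 0.141). Its levels were highest in GFP-mCherry- cells of day 40, at 10.5, 10.4 and 7.55 FPKM against 3.09 and 2.45 in GFP+mCherry+ cells (-1.47 ± 0.27 for GFP+mCherry+, limma adjusted p 0.00313, and 0.0508 without library 13) and 1.98, 2.02 and 2.00 in GFP-mCherry+ cells (-1.79 ± 0.25, 7.25e-05). COL8A2/COL8A1 was 13.2 to 24.4 in GFP+mCherry+ cells and 1.17 to 11.9 in every other library. The sum of 6 endothelial markers, 5 of them tested, was 40.9 to 225 FPKM in GFP+mCherry+ cells of day 25 and 17.5 to 40.3 in GFP-mCherry+ cells, then 213 to 236 and 18.5 to 55.5 at day 40, and 59.9 to 152.9 in GFP-mCherry- cells. KDR carried most of it, at 210.9 ± 14.8 (SD, n = 2) against 24.9 ± 15.6 FPKM (SD, n = 3) at day 40. TEK was also called higher at that day, at 8.54 against 3.46 FPKM (1.28 ± 0.45, limma adjusted p 0.0479). The other tested markers, CDH5 (0.993 against 0.860 FPKM), TIE1 (1.53 against 1.48) and EMCN (2.52 against 2.25), were low in both mCherry+ populations. The part of these markers in the COL8A2 values was not tested.

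The fibril-associated chains lie on the surface of fibrils. COL12A1, which binds type I fibrils, stood at 28.7, 33.0 and 40.0 FPKM against 8.50, 7.75 and 12.5 in the mCherry+ populations of day 25 (1.74 ± 0.44, limma adjusted p 0.0121, in all 17 alternatives). At day 40 library 14, at 29.9 FPKM, lay between the GFP+mCherry+ libraries (19.8 and 46.4) and the gene was not called (1.26 ± 0.49, limma adjusted p 0.0693). The result hung on single libraries and on the model. COL12A1 was called without library 14 (1.89 ± 0.39, limma adjusted p 0.00291). It was also called when sets of consecutive library numbers were fitted as a block (1.20 ± 0.37, limma adjusted p 0.0319). Its difference was 0.67 without library 11 (limma adjusted p 0.265), also 0.67 without library 13, and 1.86 without library 10. COL22A1, a collagen of tissue junctions such as that of muscle and tendon, ran lower in GFP+mCherry+ cells of day 25, at 6.54, 6.91 and 7.17 against 22.5, 20.3 and 11.0 FPKM (-1.21 ± 0.25, limma adjusted p 0.00423, in all 17 alternatives). Its GFP-mCherry- libraries were lowest of that day (3.72, 4.43 and 2.99), and the difference between GFP-mCherry+ and GFP-mCherry- cells was 1.96 ± 0.25 (3.5e-05). At day 40 its mCherry+ libraries overlapped, at 8.54 and 11.9 against 12.3, 9.18 and 7.82 FPKM. Of the type IX chains, which coat type II fibrils, COL9A3 and COL9A1 went separate ways. COL9A3 was highest in GFP-mCherry- cells, at 81.7, 63.1 and 110.8 FPKM at day 25 against 24.9, 18.8 and 6.07 in GFP-mCherry+ cells and 26.0, 22.8 and 32.4 in GFP+mCherry+ cells. COL9A1 was lowest there, at 0.941, 1.19 and 1.43 FPKM against 12.1, 6.85 and 11.3, and 2.80, 2.56 and 8.16. Thus COL9A3/COL9A1 was 52.9 to 86.8 in GFP-mCherry- cells of day 25, 3.97 to 9.30 in GFP+mCherry+ cells and 0.540 to 2.75 in GFP-mCherry+ cells, and the populations did not overlap at day 40 either (7.77 to 29.8, 1.46 to 3.93 and 0.512 to 1.14). COL9A3 was called higher in GFP+mCherry+ than in GFP-mCherry+ cells at day 40 (1.39 ± 0.41, limma adjusted p 0.0225, lost without library 10, 11 or 13 at up to 0.102), and not at day 25 (0.86 ± 0.37, 0.114). COL14A1, COL16A1 and COL21A1 had 14.2 FPKM or more in all but the COL21A1 value of library 2 (11.8) and were called at neither day between the mCherry+ populations, and neither was COL9A2. Like COL9A3, COL9A2 was called lower in GFP-mCherry+ than in GFP-mCherry- cells at both days in every alternative.

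Collagens that span the plasma membrane or carry a cleavable endostatin-like end formed the rest. COL23A1 was lower in GFP+mCherry+ cells at both days, at 4.28, 11.8 and 13.3 against 25.5, 28.0 and 29.8 FPKM (-1.54 ± 0.38, limma adjusted p 0.0111, and 0.0528 without library 1) and at 7.57 and 4.58 against 30.3, 11.7 and 10.8 (-1.28 ± 0.43, 0.0381, lost without library 11 at 0.149 or 13 at 0.316). COL25A1, a neuronal transmembrane collagen, overlapped at day 25 (0.46 ± 0.41, limma adjusted p 0.453) and stood at 16.4 and 24.0 against 2.37, 4.13 and 6.52 FPKM at day 40, above every other library of the series (2.04 ± 0.45, 0.00437, and 0.0759 without library 13). The change of that difference between the days was 1.58 ± 0.61 (limma adjusted p 0.631). COL15A1, a collagen of the outer face of basement membranes, stood at 52.6, 19.6 and 26.9 against 3.05, 5.43 and 12.8 FPKM at day 25 (2.14 ± 0.55, limma adjusted p 0.0136, and 0.0626 without library 1 or 0.0591 without library 2). At day 40 it was 21.4 and 31.6 against 6.75, 23.5 and 5.63, library 14 lying between the GFP+mCherry+ libraries (1.32 ± 0.62, limma adjusted p 0.127). The difference was 1.91 ± 0.59 without library 14 (limma adjusted p 0.0248) and 0.97 without library 17 (0.326). Without library 13 it was 1.05. COL18A1, the source of endostatin, was 147, 207.5 and 236 against 307, 314 and 384 FPKM at day 25, without overlap, and was not called (-0.79 ± 0.37, limma adjusted p 0.142). COL7A1, of anchoring fibrils, overlapped between the mCherry+ populations at both days, as COL13A1 and COL17A1 did at day 40.

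**Figure D5:**
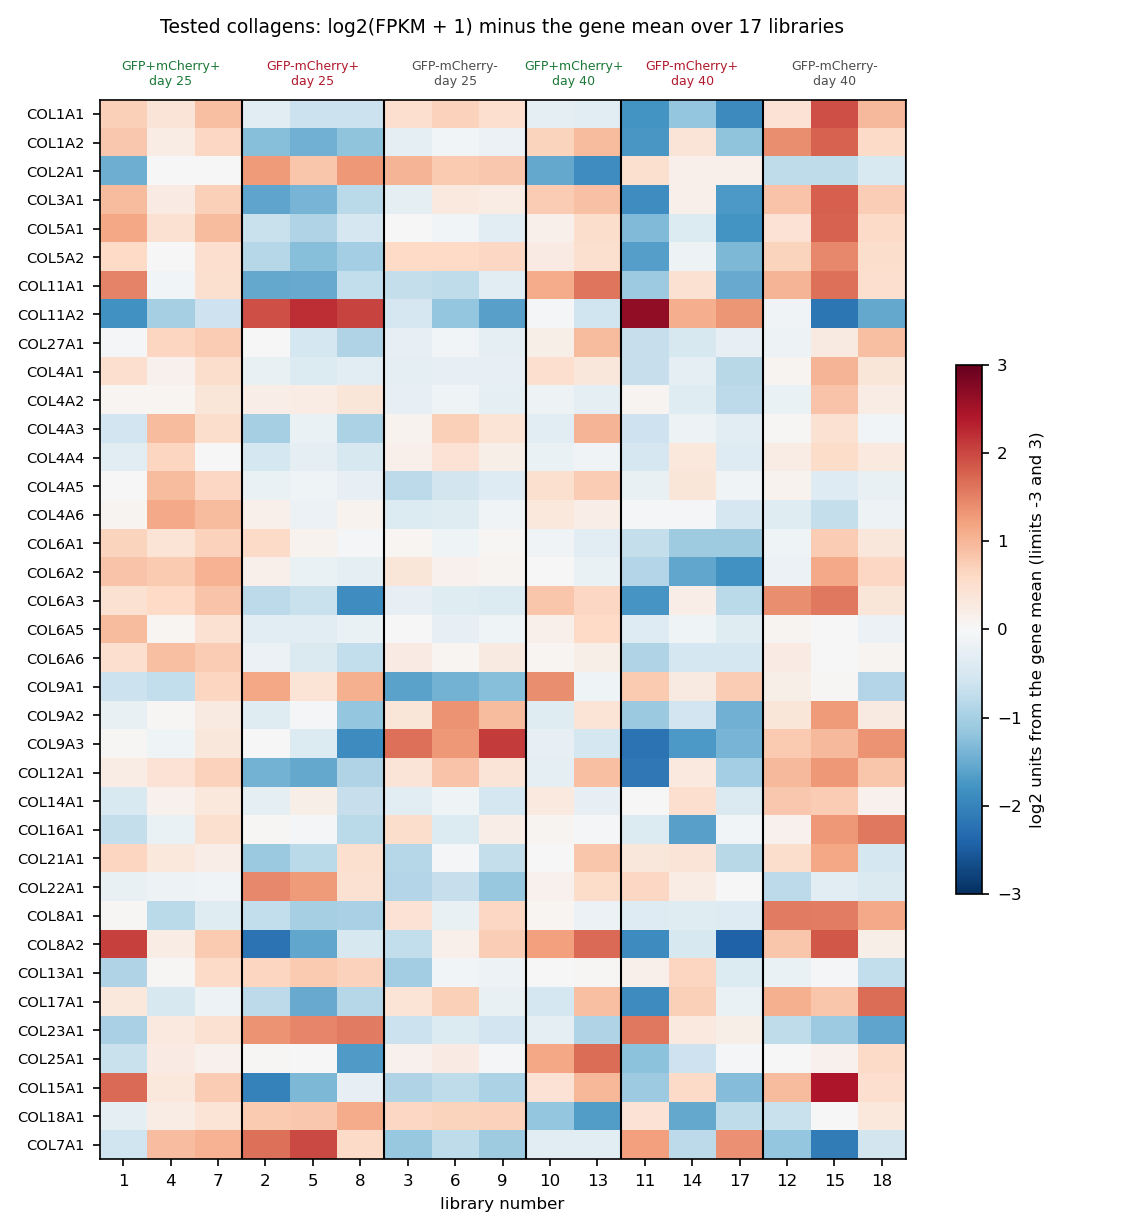
Levels of the 37 tested collagens in the 17 libraries as log2(FPKM + 1) minus the gene's mean over all libraries, libraries in columns by group and genes in rows by class, with a colour scale limited to -3 and 3. The GFP-mCherry+ columns are blue for most fibrillar chains and red for COL11A2, COL23A1 and COL7A1, and library 14 is paler than libraries 11 and 17.

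How does the collagen profile of mCherry+ cells without GFP differ from that of double-negative cells? At day 25, 6 collagens were higher and 10 lower in GFP-mCherry+ than in GFP-mCherry- cells, where limma called 12.1% of all genes higher, 16.4% lower and 28.5% in either direction. Median-of-ratios scaling turned that balance from 1803 higher and 2431 lower genes to 2170 and 2022. At day 40, 5 were higher and 20 lower, where 13.3% of all genes were higher, 18.5% lower and 31.9% in either direction. The collagens' median difference was -0.33 and -0.86 at the 2 days, against -0.10 and -0.09 over all genes. 11 of the 16 calls at day 25 and 19 of the 25 at day 40 stood in every alternative. Without library 9 the lower count of day 25 was 6, and the higher count of day 40 was 2 without library 11 and 3 without library 12 or 15. COL1A1 differed by -1.10 ± 0.30 at day 25 (limma adjusted p 0.0117) and -2.73 ± 0.30 at day 40 (1.26e-05), and COL5A2 by -1.66 ± 0.32 (0.000956) and -1.92 ± 0.32 (0.000293). COL3A1 and COL1A2 were lower by -1.34 ± 0.44 and -1.13 ± 0.41 at day 25, called at limma adjusted p 0.0316 and 0.0484 and lost under 6 and 9 of 17 alternatives. At day 40 they differed by -2.27 ± 0.44 and -2.11 ± 0.41 in all 17. COL9A3 differed by -2.45 ± 0.37 (limma adjusted p 0.000149) and -2.82 ± 0.37 (5.28e-05). COL6A1 and COL6A2, not called at day 25, differed by -1.26 ± 0.21 (0.000359) and -1.93 ± 0.28 (0.000107) at day 40. Higher in GFP-mCherry+ cells at both days were COL11A2, COL22A1, COL23A1 (2.00 ± 0.38 and 1.82 ± 0.38) and COL7A1. Of these, COL11A2 and COL23A1 stood in every alternative at both days, while the day 40 call of COL22A1 was lost without library 11. COL7A1 stood at 95.5, 120.5 and 44.9 FPKM at day 25 against 13.0, 17.1 and 13.7 in GFP-mCherry- cells (2.39 ± 0.55, limma adjusted p 0.00388), and at 71.4, 16.7 and 77.8 against 12.6, 6.15 and 19.8 at day 40, where library 14 overlapped (1.88 ± 0.55, 0.0164, lost without library 11, 15 or 17 at up to 0.0886). COL9A1 and COL13A1 were higher at day 25 (2.31 ± 0.41 and 1.14 ± 0.36, limma adjusted p 0.000547 and 0.0242, the second lost without library 3, 5 or 8 at up to 0.118), and COL2A1 at day 40 (0.92 ± 0.30, 0.028, lost without library 11, 12 or 15 at up to 0.0894). In the same comparisons 5 and 7 of 9 tested fibroblast markers were lower and none higher, and 8 and 7 of 8 cardiomyocyte markers were higher. Also lower were 7 and 6 of 7 epicardial, 6 and 6 of 6 epithelial and 4 and 3 of 5 tested endothelial markers. So were 2 and 4 of 6 tested chondrocyte and 1 and 0 of 6 macrophage markers, and none of these was higher. Of 6 smooth muscle markers 3 were higher and 1 lower at each day. The part of these cells in the collagen values was not tested.

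GFP+mCherry+ cells were also compared with GFP-mCherry- cells. At day 25, 3 of 37 collagens were higher and 2 lower (19 at an unadjusted p under 0.05 in either direction), where limma called 5.78% of all genes higher, 5.27% lower and 11.1% in either direction. The higher ones were COL4A5, COL4A6 and COL15A1 (1.81 ± 0.55, limma adjusted p 0.0453, lost without library 1, 3, 4, 6, 7 or 9 at up to 0.154), and the lower ones COL2A1 and COL9A3 (-1.59 ± 0.37, 0.012, and 0.0627 without library 9). The count of higher collagens was 1 without library 3 or 7, 8 with sets of consecutive libraries as a block, 13 with only the compared groups fitted and 20 with sample quality weights, while the lower count was 1 without library 9. At day 40, none was higher and 3 were lower (10 at an unadjusted p under 0.05 in either direction), where 7.04% of all genes were higher, 4.76% lower and 11.8% in either direction. They were COL1A1 (-1.42 ± 0.34, limma adjusted p 0.013, and 0.104 without library 13), COL9A3 (-1.43 ± 0.41, 0.0348, and 0.244 without library 13) and COL8A1. The lower count was 0 without library 13 and 6 without library 12, and 1 collagen was then called higher. The collagens' median difference was 0.53 at day 25 and -0.38 at day 40, against -0.03 and 0.02 over all genes. Of the marker lists, 6 and 4 of 8 cardiomyocyte markers were higher at days 25 and 40, as were 0 and 5 of 6 macrophage and 3 and 1 of 6 smooth muscle markers. Lower were 3 and 1 of 7 epicardial, 1 and 3 of 6 epithelial, 3 and 0 of 5 endothelial, 1 and 1 of 6 chondrocyte and 0 and 2 of 9 fibroblast markers, and their part in the collagen values was not tested. The 3 population comparisons of each day share their libraries, and so are not independent of each other.

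Day 40 was compared with day 25 within each population. The library numbers of day 25 all precede those of day 40, and the sample labels name no batch. Day therefore cannot be told apart from any difference in preparation or sequencing between these libraries. In GFP+mCherry+ cells COL18A1 was lower, at 78.9 and 55.3 FPKM against 147, 207.5 and 236 (-1.53 ± 0.41, limma adjusted p 0.048), the only call among 37 (1.88% of all genes were called lower, 2.18% higher and 4.06% in either direction, and 7 collagens had an unadjusted p under 0.05). The call was lost in 10 of 15 alternatives, including the loss of library 4, 7, 10 or 13. In GFP-mCherry+ cells COL6A1 (-1.16 ± 0.21, limma adjusted p 0.00942), COL6A2 (-1.29 ± 0.28, 0.0166) and COL18A1 (-1.53 ± 0.37, 0.0273) were lower and none was higher (9 at an unadjusted p under 0.05), where 3.91% of all genes were called lower, 0.633% higher and 4.55% in either direction. The number was 0 without library 2 or 14, 1 without library 5 or 17 and 6 without library 11. Quantile normalization moved the share of higher calls over all genes there from 13.9% to 26.2%. In GFP-mCherry- cells COL8A1 (1.13 ± 0.25, limma adjusted p 0.0193) and COL15A1 (2.17 ± 0.55, 0.0391) were higher and COL2A1 lower (-1.53 ± 0.30, 0.0112), where 1.56% of all genes were called higher, 2.32% lower and 3.87% in either direction (12 collagens had an unadjusted p under 0.05). COL2A1 stood at 134, 115 and 116 FPKM at day 25 and at 38.8, 38.7 and 47.9 at day 40, and this call stood in all 16 alternatives, while the higher count was 0 without library 6 or 15, 1 without library 3, 9 or 12, and 4 without library 18. Between the days 6 of 6 macrophage markers were higher in GFP+mCherry+ and 3 of 6 in GFP-mCherry+ cells, and 3 of 5 endothelial markers were lower in GFP-mCherry- cells. Of 6 tested chondrocyte markers HAPLN1 was called lower in each population (-1.74, -1.36 and -1.94 in GFP+mCherry+, GFP-mCherry+ and GFP-mCherry- cells). COMP was called higher in GFP-mCherry- cells (1.57 ± 0.29, limma adjusted p 0.00754). Of 9 fibroblast markers 1 was higher in each population and 1 lower in GFP+mCherry+ cells, and the part of these markers in the values was not tested. COL1A1 did not pass the test within any population, at -0.97 ± 0.34 (limma adjusted p 0.116) in GFP+mCherry+, -1.08 ± 0.30 (0.0506) in GFP-mCherry+ and 0.55 ± 0.30 (0.366) in GFP-mCherry- cells. The test of whether the difference between the mCherry+ populations changed from day 25 to day 40 called 0 of 37 collagens (2 at an unadjusted p under 0.05), where 0.0135% of all genes were called.

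Genes that build, export and bind collagens were listed by role, and their counts stand beside 12.0% of all genes called higher and 8.38% lower at day 25 and 16.2% and 9.29% at day 40. Of 17 tested genes for hydroxylation, glycosylation and folding of chains, 8 were higher and 2 lower in GFP+mCherry+ than in GFP-mCherry+ cells at day 25 and 6 and 0 at day 40. LEPRE1, a prolyl 3-hydroxylase, was 102 ± 22.8 against 49.8 ± 8.16 FPKM (SD, n = 3 each) at day 25, a difference of 1.01 ± 0.24 (limma adjusted p 0.00841), and differed by 1.14 ± 0.27 at day 40 (0.00586). Its partner CRTAP differed by 0.72 ± 0.17 and 0.60 ± 0.19 (limma adjusted p 0.00893 and 0.0319). The collagen chaperone SERPINH1 differed by 0.64 ± 0.17 (limma adjusted p 0.0171) and 0.47 ± 0.19 (0.0853), and the prolyl isomerase FKBP14 by 0.92 ± 0.26 (0.0212) and 1.07 ± 0.29 (0.0137). TMEM38B, a cation channel of the endoplasmic reticulum, was lower at day 25 (-0.86 ± 0.23, limma adjusted p 0.0153) and not called at day 40 (-0.46 ± 0.26). Of 8 genes of collagen secretion 4 were higher and none lower at each day. The membrane-bound transcription factors CREB3L1 and CREB3L2 differed by 1.96 ± 0.26 (limma adjusted p 0.000324) and 1.02 ± 0.22 (0.0054) at day 25, and KDELR2 and the coat protein gene SEC24D by 1.06 ± 0.21 and 1.30 ± 0.29. MIA3, the cargo receptor that loads procollagen, differed by 0.51 ± 0.23 (limma adjusted p 0.123).

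Of 12 tested genes that trim and crosslink procollagen, 3 were higher and 1 lower at each day. This count and those of the next 2 lists stand beside the same shares of all genes. They were 12.0% higher, 8.38% lower and 20.4% in either direction at day 25. At day 40 they were 16.2%, 9.29% and 25.5%, and the lower count of this list is near its share. LOX, which starts crosslinks by oxidising lysines, was 100.5 ± 24.9 against 28.3 ± 2.90 FPKM (SD, n = 3 each) at day 25 (1.76 ± 0.41, limma adjusted p 0.00796) and 156 ± 2.79 (SD, n = 2) against 33.6 ± 25.1 (SD, n = 3) at day 40 (2.41 ± 0.46, 0.00182). The C-propeptide protease BMP1 differed by 0.95 ± 0.24 and 1.42 ± 0.27 (limma adjusted p 0.0113 and 0.00159), LOXL1 by 1.12 ± 0.29 and 0.90 ± 0.33 (0.0146 and 0.0546), and the N-propeptide protease ADAMTS2 by 0.69 ± 0.28 and 1.00 ± 0.31 (0.0918 and 0.0271). ADAMTS14, of the same protease family, was lower, by -1.51 ± 0.32 and -1.85 ± 0.36 (limma adjusted p 0.00458 and 0.00191). Of 9 tested collagen receptors, 3 were higher at day 25 and 5 at day 40, and none lower. They included the integrin chains ITGA1 (1.66 ± 0.31 and 2.23 ± 0.35) and ITGA11 (1.98 ± 0.51 and 2.52 ± 0.57) and the receptor tyrosine kinase DDR2 (1.26 ± 0.29 and 1.74 ± 0.32), all with limma adjusted p of 0.0132 or less. Of 12 other basement membrane genes, 3 were higher and 2 lower at day 25 and 5 and 3 at day 40. The laminin chains split, in that LAMB1 (1.08 ± 0.31 and 2.22 ± 0.34) and LAMC1 (0.69 ± 0.22 and 0.75 ± 0.25) were higher, LAMA4 (-2.91 ± 0.28 and -1.66 ± 0.31) and LAMA2 (-1.78 ± 0.29 and -1.71 ± 0.33) lower, and the collagen-binding SPARC was higher by 1.97 ± 0.39 and 2.31 ± 0.44, each called at both days by limma. Day 25 calls were lost without library 1 and without library 5 for SERPINH1, FKBP14, TMEM38B, LOXL1, ITGA11, LAMB1 and LAMC1 (limma adjusted p up to 0.186), and for BMP1 without library 5 (0.062). Without library 13, which leaves 1 GFP+mCherry+ library, the higher counts of day 40 were 0 for hydroxylation and folding, 1 for secretion, 2 for trimming and crosslinking, 3 for receptors and 2 for basement membrane genes. The day 40 calls of LEPRE1 (limma adjusted p 0.0759), CRTAP (0.216), FKBP14 (0.132), CREB3L2 (0.121), KDELR2 (0.129), SEC24D (0.16), ADAMTS2 (0.109), ITGA11 (0.0906), LAMC1 (0.154) and LAMA2 (0.0515) were lost without it, and LAMA4 was lost without libraries 13 and 14 (0.057). CREB3L1, LOX, BMP1, ADAMTS14, ITGA1, DDR2, LAMB1 and SPARC were called at day 40 in all 16 alternatives. Over the same comparisons 4 and 5 of 9 tested fibroblast markers, 3 and 2 of 7 epicardial, 5 and 1 of 6 epithelial, 1 and 1 of 6 tested chondrocyte, 1 and 5 of 6 macrophage and 2 and 2 of 5 tested endothelial markers were higher and none lower. Of 6 smooth muscle markers 2 were higher at each day and CNN1 was lower at day 40 (-1.72 ± 0.40, limma adjusted p 0.00614), while 5 and 6 of 8 cardiomyocyte markers were lower and none higher. Without library 13 the fibroblast count of day 40 was 1 higher and the cardiomyocyte count 0 lower, and the latter was 3 without library 10, 11 or 17. The part of these cells in the values was not tested.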

How the data were processed

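RNA sequencing of 17 libraries of sorted H9-derived cells was analysed from the table of gene levels that the authors deposited. Per the submitters' processing notes, bcl2fastq 2.19, cutadapt, STAR 2.5.2b, Cufflinks 2.1.1 and the hg19 genome were used. The deposited values were taken as FPKM from that tool and from their range, since the table's header names no unit. Read counts are not in the files, so depth and counting error are unknown here.

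Rows of 1 gene were joined, leaving 20218 genes. Genes at 1 FPKM or more in at least 2 libraries (14845) were tested as log2(FPKM + 1) with limma 3.58.1 in R 4.3.3, in 1 fit of all 6 groups without covariates, with Benjamini-Hochberg adjustment over all tested genes and a threshold of 0.05. The fit was tested on simulated data with independent normal errors of each gene's own spread. That test does not bear on outlying libraries or on libraries that deviate together. Population comparisons were made within each day, day comparisons within each population. The text names all tested fibrillar and type IV chains, the other collagens with a mean of 5 FPKM in a group or a call between the mCherry+ populations, and up to 5 genes of each list of collagen-related genes by adjusted p. The collagens and the gene and marker lists were chosen with earlier results of these data known. Alternatives were another pseudocount, filter and scaling, sample weights, a block, fits of the compared groups alone and libraries left out. Refits of the collagen-related genes and marker lists, of COL12A1 and COL15A1, and counts without COL6A5 were added after seeing the data.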

Additional observations from a re-analysis of the deposited data

How the results depend on the processing

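The 96 calls of a collagen in a comparison had 1587 values in all under the alternatives, of which 0 changed sign and 243 lost the call. Of 4584 such values for pairs without a call, 167 were called and 264 changed sign without a call. Many of these values come from the same refit and are not independent. The cause was not tested for any value below. Leaving out single libraries gave, over all genes, 1765 to 2363 calls between the mCherry+ populations at day 25 (3023 with all libraries) and 1137 to 4226 at day 40 (3783). For GFP-mCherry+ against GFP-mCherry- cells it gave 3105 to 3820 (4234) and 3398 to 4592 (4733), and for GFP+mCherry+ against GFP-mCherry- cells 851 to 1352 (1641) and 474 to 2066 (1751). Between days it gave 194 to 1011 (602) in GFP+mCherry+, 78 to 1620 (675) in GFP-mCherry+ and 153 to 443 (575) in GFP-mCherry- cells, and 0 to 48 (2) for the change of the mCherry+ difference between days. Collagens called in the same refits, higher and then lower, numbered 11 to 15 and 3 to 6 between the mCherry+ populations at day 25, and 2 to 18 and 1 to 5 at day 40. They numbered 5 to 6 and 6 to 9, then 2 to 5 and 18 to 21, for GFP-mCherry+ against GFP-mCherry- cells, and 1 to 3 and 1 to 3, then 0 to 1 and 0 to 6, for GFP+mCherry+ against GFP-mCherry- cells. Between days 0 to 3 were lower in GFP+mCherry+, 0 to 6 lower in GFP-mCherry+ and 0 to 4 higher in GFP-mCherry- cells.

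In the following, counts are of all genes unless collagens are named, and day changes are those within a population. Sample quality weights gave 7677 calls between the mCherry+ populations at day 25, 7588 for GFP-mCherry+ against GFP-mCherry- cells at day 25, and 6138 (20 collagens higher, 4 lower) and 1135 for GFP+mCherry+ against GFP-mCherry- cells at days 25 and 40. They gave day changes of 1470 genes (4 collagens lower) in GFP+mCherry+, 1674 (5 lower) in GFP-mCherry+ and 1624 (9 higher) in GFP-mCherry- cells, and 11 for the change between days. Without libraries 13 and 14 the counts were 1757 (9 collagens higher, 1 lower) between the mCherry+ populations at day 40, 6 collagens higher and then 555 genes (0 collagens lower) for GFP+mCherry+ against GFP-mCherry- cells at the 2 days, day changes of 212 (0 lower), 111 (0 lower) and 6 collagens higher, and 18 for the change. Without libraries 1, 12 and 13 they were 1478 (4 collagens higher, 1 lower) between the mCherry+ populations at day 40, 913 for GFP+mCherry+ against GFP-mCherry- cells at day 40, 349 for the day change in GFP+mCherry+ cells, 5 collagens lower in GFP-mCherry+ cells, and 22 for the change. Fitting only the compared groups gave 1624 (8 collagens higher) between the mCherry+ populations at day 40, 13 collagens higher and then 621 genes for GFP+mCherry+ against GFP-mCherry- cells, day changes of 306, 10 (0 collagens lower) and 4 collagens higher, and 0 for the change.

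For GFP+mCherry+ against GFP-mCherry- cells of day 40, median-of-ratios scaling called 2 collagens higher and 5 lower, and quantile normalization 1 higher and 5 lower. Both called 1 gene for the change between days. Quantile normalization gave day changes of 1 collagen higher and 2 lower in GFP+mCherry+, 439 genes in GFP-mCherry+ and 5 collagens higher in GFP-mCherry- cells. With a pseudocount of 0.1, 0 collagens were lower between days in GFP+mCherry+ cells, 337 genes (0 collagens higher) changed in GFP-mCherry- cells and 0 in the change. With no filter these were 0 collagens lower, 294 genes (1 collagen lower) in GFP-mCherry+ cells, 1 collagen higher in GFP-mCherry- cells and 40 genes. With a filter at 5 FPKM they were 348 genes (0 collagens lower) in GFP+mCherry+, 378 in GFP-mCherry- cells and 0. With zeros set to missing, 2 collagens were lower in GFP+mCherry+ cells. The replicate block, by sets of consecutive library numbers, called 8 collagens higher for GFP+mCherry+ against GFP-mCherry- cells at day 25 and 0 genes in the change. Deviations from group means correlated at -0.123 to 0.458 within such sets (16 pairs, median 0.136, 10 over 0.1) and at -0.373 to 0.251 between sets (32 pairs, median -0.068, 6 over 0.1). Deviations within a group sum to 0, so correlations between sets are tied to those within sets with the opposite sign. With only libraries 10 and 13 in their group, these are exact mirrors (-0.165 and 0.165 with library 14). The pairs are therefore not independent, and part of the contrast between the medians is built in. The labels name no shared source, so the sets were not taken as pairs.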
